A study of Arabidopsis thaliana with 18 samples.

Results

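The dependence of the warm response on PIF4 was measured in Arabidopsis thaliana seedlings as a difference of differences: the change of each transcript between 22 and 29 °C in the pif4 mutant minus its change in wild type. The comparison rests on 12 of the 18 libraries in the series, 3 for each of 4 groups: wild type at 22 °C, wild type at 29 °C, pif4 at 22 °C and pif4 at 29 °C. All plants were of the Columbia strain and were harvested as whole seedlings at day 7, and the labels write the mutant genotype as PIF4-/- without naming its allele or saying how long the plants had been at 29 °C. The other 6 libraries come from the bbx18 bbx23 double mutant, labelled BBX18-/-BBX23-/-, 3 at each temperature. Their values are given beside those of pif4 as a second mutant grown under the same conditions. Total RNA was sequenced, and the authors' values are FPKM, the fragments assigned to a gene, scaled to transcript length and to the size of the library. Of the 33602 genes in the table, 19116 reached 1 FPKM in at least 3 of the 18 libraries and were tested on the log2(FPKM + 1) scale, on which a difference of 1 is close to a doubling for well expressed genes and understates the change of genes near 0.

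PIF4 is a basic helix-loop-helix transcription factor that binds DNA at the G-box and at the related PBE-box. It is known as a central regulator of thermomorphogenesis, the elongation of hypocotyls and petioles in warm but not stressful temperatures, and it acts in part by raising auxin synthesis and auxin response. Phytochrome B, which loses its active form faster in the warmth, and the evening complex of the circadian clock restrain it. The B-box proteins BBX18 and BBX23 are known to act in the same growth response through the clock protein ELF3.

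The 5 genes of smallest p in the comparison are introduced by their promoters, because the results below turn on them and because PIF4 is a DNA-binding protein. Each window runs from 250 bases before to 50 bases after the annotated gene start in RefSeq's TAIR10.1 annotation, 5′ to 3′ on the strand of the gene, and capitals mark the G-box CACGTG and the PBE-box CACATG, searched on both strands (the second therefore also reads CATGTG). The windows lie at chr5:17912594-17912893 on the minus strand for AT5G44440, chr5:568175-568474 on the plus strand for AT5G02540, chr5:2176397-2176696 on the minus strand for ST2A, chr2:19569790-19570089 on the plus strand for AT2G47780 and chr3:5263751-5264050 on the plus strand for IAA19.
AT5G44440: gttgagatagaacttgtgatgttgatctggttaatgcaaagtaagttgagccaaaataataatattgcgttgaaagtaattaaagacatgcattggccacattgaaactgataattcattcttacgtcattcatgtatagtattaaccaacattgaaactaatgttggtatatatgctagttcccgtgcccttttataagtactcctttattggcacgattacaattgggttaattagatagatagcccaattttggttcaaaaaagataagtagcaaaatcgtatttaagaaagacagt
AT5G02540: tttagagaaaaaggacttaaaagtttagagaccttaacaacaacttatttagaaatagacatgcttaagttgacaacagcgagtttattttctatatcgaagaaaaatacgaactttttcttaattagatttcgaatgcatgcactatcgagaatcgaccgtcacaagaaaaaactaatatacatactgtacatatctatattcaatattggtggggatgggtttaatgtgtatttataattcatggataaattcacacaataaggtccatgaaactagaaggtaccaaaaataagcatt
ST2A: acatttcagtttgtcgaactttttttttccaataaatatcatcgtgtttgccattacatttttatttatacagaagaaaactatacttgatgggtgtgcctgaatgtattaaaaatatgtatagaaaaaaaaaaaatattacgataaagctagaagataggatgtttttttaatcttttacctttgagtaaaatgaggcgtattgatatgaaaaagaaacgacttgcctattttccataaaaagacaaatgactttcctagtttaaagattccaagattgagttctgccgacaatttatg
AT2G47780: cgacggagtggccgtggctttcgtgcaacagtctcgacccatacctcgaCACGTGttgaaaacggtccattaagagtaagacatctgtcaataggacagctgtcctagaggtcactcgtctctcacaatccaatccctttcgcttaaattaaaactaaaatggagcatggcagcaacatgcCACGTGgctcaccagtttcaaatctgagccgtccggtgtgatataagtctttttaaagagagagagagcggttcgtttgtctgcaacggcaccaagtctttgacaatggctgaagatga
IAA19: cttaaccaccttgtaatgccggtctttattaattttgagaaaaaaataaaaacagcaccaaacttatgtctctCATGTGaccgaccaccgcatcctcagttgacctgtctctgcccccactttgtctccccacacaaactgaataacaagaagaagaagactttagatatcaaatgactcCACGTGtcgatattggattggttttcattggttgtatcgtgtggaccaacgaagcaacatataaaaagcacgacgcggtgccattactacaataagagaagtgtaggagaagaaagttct

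The first 3 of these windows hold neither motif. The AT2G47780 window holds 2 G-boxes, at 201 and 69 bases before the start, and the IAA19 window holds a G-box 70 bases and a PBE-box 177 bases before the start. Among the 18985 tested genes with a promoter in the reference, 20.3% had at least 1 of the 2 motifs in the 300-base window, and of the 12 genes of smallest p described below 5 did (41.7%). In the 1000 bases before the start the same shares were 47.3% of all tested genes and 9 of the 12, with 2 of the first 3 genes carrying a PBE-box there. A match to these letters is a description of the sequence and does not show binding.

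PIF4 itself was checked first. Its transcript read 10.4, 10.9 and 8.83 FPKM in the 3 wild-type libraries at 22 °C, and 19.4, 16.1 and 16.8 FPKM at 29 °C. The pif4 libraries read 7.90, 6.96 and 6.30 FPKM at 22 °C and 9.09, 11.03 and 7.84 FPKM at 29 °C. All 3 mutant libraries at 29 °C lay below all 3 wild-type libraries, with a difference of −0.84 on the log2 scale (limma, adjusted p = 0.0109), so the transcript was reduced but not absent. The rise of PIF4 mRNA with warmth was 0.74 in wild type (adjusted p = 0.00132) and 0.35 in pif4 (adjusted p = 0.0972), and the difference between these changes was −0.39 ± 0.19 (SE; unadjusted p = 0.0566 in limma's fit across all genes). BBX18 gave no resolvable difference between pif4 and wild type (0.30 ± 1.00). In the double mutant BBX18 ran from 16.4 to 20.9 FPKM at 22 °C, below the 27.7 to 30.4 FPKM of wild type, and from 7.12 to 51.3 FPKM at 29 °C, overlapping the 9.43 to 64.4 FPKM of wild type. BBX23 was listed at 0 in every library, so it gives no check of that genotype.

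Across the 12 libraries the summed FPKM ranged from 744698 to 1152582 and the number of genes at 1 FPKM or more from 17791 to 18367. The FPKM table holds no read totals, but the spacing of low values placed the depth at roughly 15.6 M to 29.0 M assigned reads per library (M, mega), an approximate figure that rests on reference transcript lengths and gives no counting error for single values. The first principal component, 40.4% of the variance, followed temperature in every library. The second, 22.1%, split the 29 °C libraries unevenly: replicate 3 stood at −18.6 in wild type and at 25.4 in pif4, while replicates 1 lay at −25.4 and −42.1 and replicates 2 at 30.6 and 29.1. Wild type and pif4 are therefore not balanced along this axis at 29 °C, and the count of calls was 2, 2 and 3 without replicate 1, 2 or 3 at 29 °C in all genotypes. The genes at unadjusted p under 0.05 (limma) moved more, from 248 with all libraries to 304, 146 and 1058 in these settings. The cause of that move was not tested.

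Only 3 of the 19116 genes differed in their warm response between pif4 and wild type after adjustment (0.0157%; limma with Benjamini-Hochberg adjustment at 0.05), and all 3 responded less in pif4. None responded more. Without adjustment 248 genes had p under 0.05 (1.3%), 97 with a higher (0.507%) and 151 with a lower (0.79%) response in pif4. That total is below the share of 0.05 that evenly spread p-values would give, so the test was conservative here. The small number of calls therefore does not show that few genes depend on PIF4. Why the p-values ran high was not tested. The responses themselves were large in both genotypes: 2711 genes changed with warmth in wild type (14.2% of those tested, 5.63% upward and 8.55% downward) and 2515 changed in pif4 (13.2%, with 4.67% upward and 8.49% downward). The median difference of responses over all tested genes was −0.03 on the log2 scale, with quartiles of −0.14 and 0.10.

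**Figure D1:**
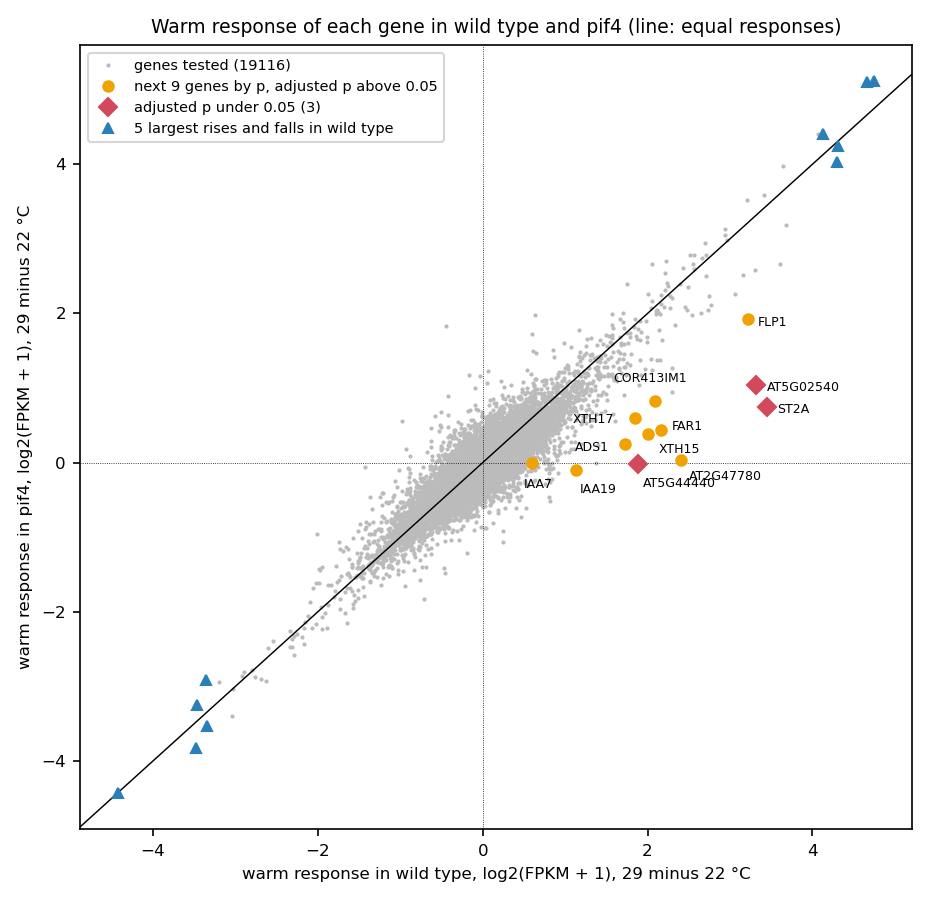
Warm response of every tested gene in wild type (horizontal axis) and in pif4 (vertical axis), both as the log2(FPKM + 1) difference between 29 and 22 °C over 3 libraries each; the line marks equal responses. The 10 largest wild-type responders (triangles) lie along the line, whereas the 3 genes with an adjusted p under 0.05 (diamonds) and the next 9 by p (circles) lie below it on the side of genes that rose in wild type.

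The gene of smallest p was AT5G44440, annotated as a FAD-binding protein of the berberine family. Its transcript was close to 0 in wild type at 22 °C (0.075, 0.030 and 0.218 FPKM) and read 2.05, 3.64 and 3.83 FPKM at 29 °C. In pif4 it was listed at 0, 0 and 0.034 FPKM at 22 °C and at 0 in all 3 libraries at 29 °C. The wild-type libraries at 29 °C thus stood apart from every other library of both genotypes, and the warm responses were 1.89 ± 0.19 in wild type (SE, n = 3 against 3) and −0.02 ± 0.19 in pif4. The difference was −1.90 ± 0.26 (limma, adjusted p = 0.0398, 95% interval −2.46 to −1.34). In bbx18 bbx23 the same gene rose from 0.055, 0.035 and 0 to 1.89, 2.34 and 3.91 FPKM, which overlaps the wild-type range at 29 °C.

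AT5G02540, annotated as an NAD(P)-binding Rossmann-fold protein, was the most abundant of the 3. Wild type read 9.84, 11.1 and 10.4 FPKM at 22 °C and 121, 91.6 and 129 FPKM at 29 °C, a 10.9-fold rise of the mean. The pif4 libraries read 7.49, 5.50 and 6.23 FPKM at 22 °C and 15.5, 9.87 and 18.6 FPKM at 29 °C, a 2.29-fold rise of the mean. The 2 temperatures did not overlap in either genotype, and the rise within pif4 also passed the test (1.05 ± 0.24, adjusted p = 0.00742), so the gene kept part of its warm response. The difference of responses was −2.27 ± 0.33 (limma, adjusted p = 0.0409, 95% interval −2.98 to −1.56). The double mutant rose to 75.5, 61.7 and 110 FPKM.

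ST2A (AT5G07010) encodes a sulfotransferase that acts on hydroxyjasmonate, a step that takes jasmonate out of its active pool, and it showed the largest difference of all tested genes. It rose from 3.16, 2.61 and 3.35 FPKM to 73.8, 29.0 and 37.0 FPKM in wild type, and replicate 1 was the highest of the 3. In pif4 it moved from 4.095, 2.56 and 4.24 FPKM to 7.79, 7.00 and 5.43 FPKM. The highest pif4 library at 29 °C was therefore below the lowest wild-type library at that temperature, although the pif4 libraries at 29 °C all lay above those at 22 °C (response 0.75 ± 0.29, adjusted p = 0.105). The difference of responses was −2.70 ± 0.41 (limma, adjusted p = 0.0422, 95% interval −3.57 to −1.83). In bbx18 bbx23 ST2A started higher, at 5.78, 8.93 and 7.86 FPKM, and reached 44.5, 22.8 and 32.2 FPKM.

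All 3 calls lie just under the threshold, and the adjusted p-values over all settings tried ran from 0.00471 to 0.231 for AT5G44440, 0.00110 to 0.255 for AT5G02540 and 0.00561 to 0.230 for ST2A. The count fell to 0 when any 1 of 8 libraries was left out: each of the 3 wild-type libraries at 22 °C, wild type at 29 °C replicate 3, pif4 at 22 °C replicates 1 and 3, and pif4 at 29 °C replicates 1 and 2. It became 1 without wild type at 29 °C replicate 1, 2 without replicate 2 of that group, 4 without pif4 at 22 °C replicate 2 and 6 without pif4 at 29 °C replicate 3. The sizes of the differences, when 1 library was left out, ran from −2.12 to −1.79 for AT5G44440, −2.45 to −2.03 for AT5G02540 and −2.98 to −2.32 for ST2A. With 0.1 FPKM added in place of 1 none of the 3 was called, and the difference for AT5G44440, whose values lie near 0, became −4.17 (limma, adjusted p = 0.0501).

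**Figure D2:**
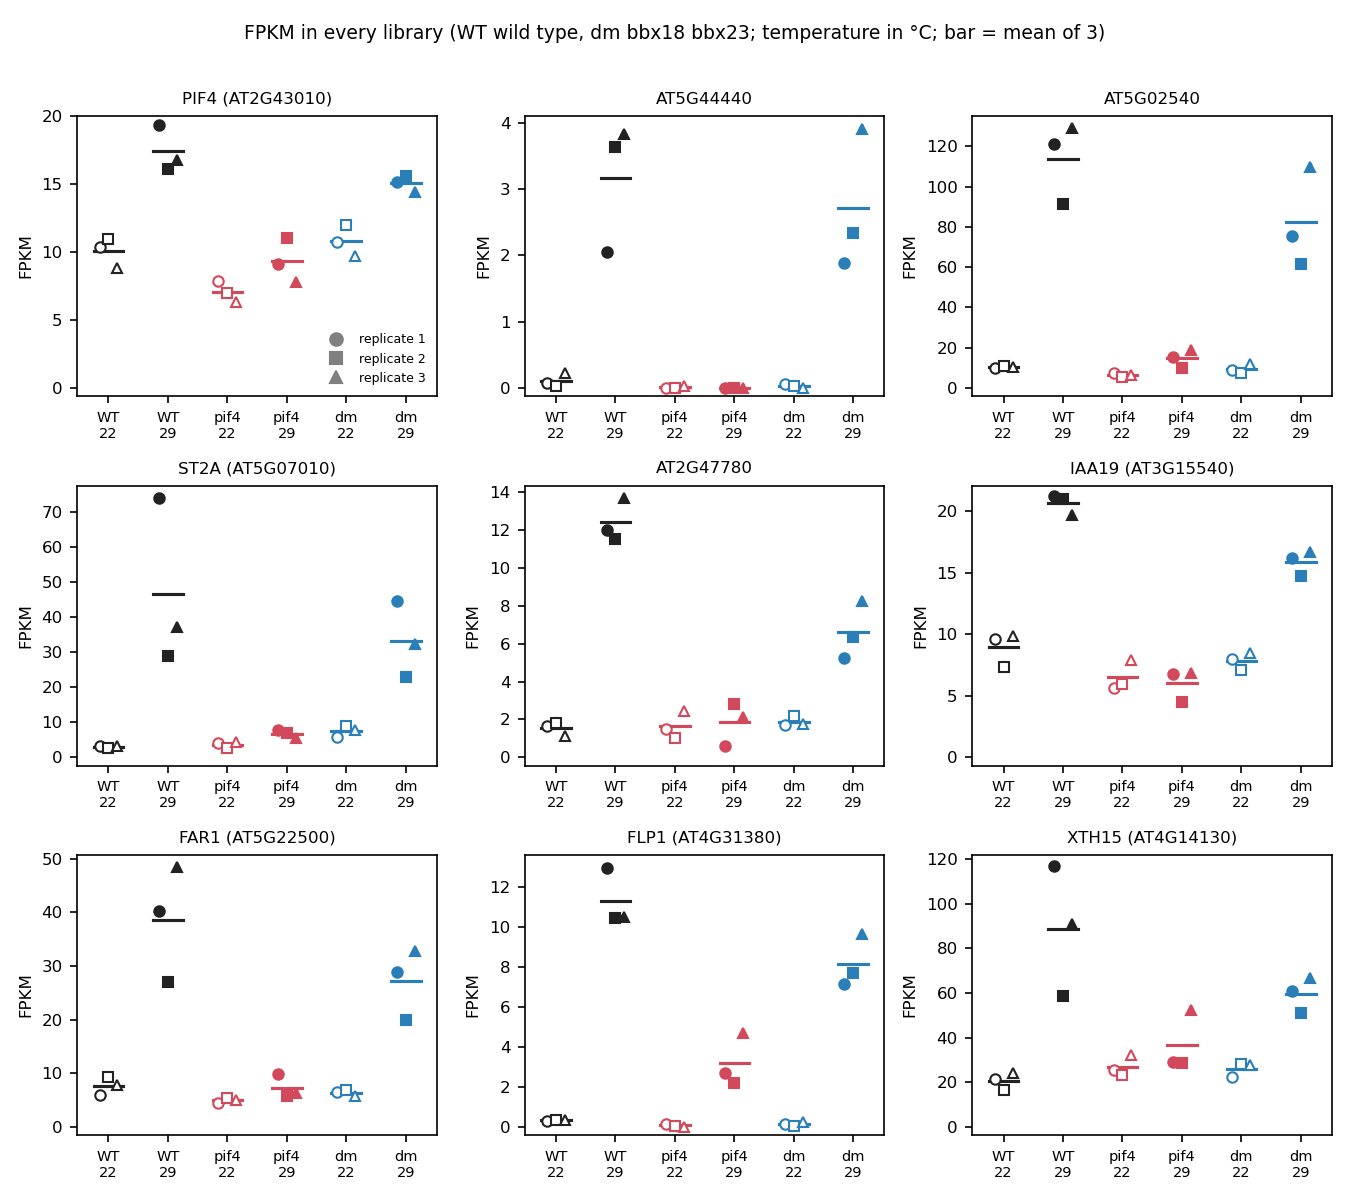
FPKM of PIF4 and 8 of the genes of smallest p in each of the 18 libraries (WT, wild type; dm, bbx18 bbx23), on linear axes from 0; open symbols are 22 °C, filled symbols 29 °C, shapes are replicate numbers and bars are means of 3. Wild type and the double mutant rose at 29 °C in the panels of the 8 genes, while the pif4 libraries at 29 °C stayed near their 22 °C level or rose less.

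The next genes by p missed the threshold, and each of them also had a lower response in pif4. AT2G47780, annotated as a rubber elongation factor family protein, read 1.67, 1.80 and 1.15 FPKM in wild type at 22 °C and 12.01, 11.5 and 13.7 FPKM at 29 °C. In pif4 it read 1.48, 1.01 and 2.47 FPKM at 22 °C and 0.573, 2.83 and 2.13 FPKM at 29 °C, so the mutant's temperatures overlapped and its wild-type response of 2.41 had a counterpart of 0.04. The difference was −2.37 ± 0.38 (limma, adjusted p = 0.0558). A gene on the opposite strand overlaps it in the reference, and no source used here says whether strand was used in counting, so reads of the 2 genes cannot be told apart. The same holds for FAR1, XTH15, HSP17.4, LHCB2.3, CKX5, BOA, LUX and FER1 below, and IAA34 and CKX5 overlap a gene on their own strand.

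IAA19 encodes an Aux/IAA protein, a repressor of auxin response that auxin itself induces. It rose from 9.61, 7.36 and 9.85 FPKM to 21.2, 20.96 and 19.6 FPKM in wild type and stayed at 5.60, 5.92 and 7.93 FPKM against 6.77, 4.51 and 6.81 FPKM in pif4. Wild type thus doubled within a narrow range (2.31-fold) and the 2 temperatures overlapped in pif4 (difference −1.23 ± 0.22, limma adjusted p = 0.155). FAR1 (AT5G22500), a fatty acid reductase that makes fatty alcohols, rose from 5.95, 9.38 and 7.80 FPKM to 40.3, 27.1 and 48.5 FPKM in wild type. In pif4 it went from 4.49, 5.46 and 5 FPKM to 9.92, 5.69 and 6.32 FPKM (difference −1.72 ± 0.33, limma adjusted p = 0.240).

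FLP1 (AT4G31380), a relative of the flowering-promoting factor FPF1, had near-zero values at 22 °C, which makes its response depend on the scale. It rose from 0.289, 0.344 and 0.322 FPKM to 12.9, 10.4 and 10.5 FPKM in wild type, and from 0.159, 0.057 and 0 to 2.67, 2.19 and 4.69 FPKM in pif4. Every pif4 library at 29 °C lay below every wild-type library. The ratio of the 29 to the 22 °C mean was 35.4 in wild type and 44.2 in pif4, so no lower response was seen on that scale. The relative rise in pif4 is not resolved because 1 of its 22 °C libraries was listed at 0. On the log2(FPKM + 1) scale the difference was −1.29 ± 0.25 (limma, adjusted p = 0.285), and with 0.1 FPKM added in place of 1 it was −0.47. The gene rose in pif4 as well (1.92, adjusted p = 4.59e-06).

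The remaining 5 of the 12 genes of smallest p were ADS1, a fatty acid desaturase (−1.48 ± 0.30), COR413IM1, a cold-regulated protein of the chloroplast inner envelope (−1.26 ± 0.26), the cell-wall enzymes XTH15 (−1.62 ± 0.36) and XTH17 (−1.26 ± 0.30), and the auxin-response repressor IAA7 (−0.60 ± 0.15). COR413IM1 read 45.1, 51.0 and 55.4 FPKM in wild type at 29 °C and 11.3, 13.9 and 13.6 FPKM in pif4. ADS1 read 45.1, 47.3 and 52.1 FPKM in wild type at 29 °C and 9.18, 12.5 and 19.5 FPKM in pif4. XTH15 ranged from 58.4 to 117 FPKM in wild type at 29 °C and from 28.4 to 52.2 FPKM in pif4, where replicate 3 was the highest. XTH17, whose transcript is over 90% identical to that of XTH18 and may share reads with it, ranged from 59.7 to 79.7 FPKM in wild type and from 20.7 to 48.8 FPKM in pif4, again with replicate 3 the highest. IAA7 was the most abundant of the 12 and read 200, 219 and 230 FPKM in wild type at 29 °C against 128, 129 and 153 FPKM in pif4.

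All 12 genes had a lower response in pif4 on the log2(FPKM + 1) scale, and all 12 rose in wild type, where 5.63% of all tested genes rose. Lower levels in pif4 were called at 29 °C for 11 of the 12, where 0.0994% of tested genes were called lower and 0.0366% higher. None of the 12 was called at 22 °C, where 0.0209% of tested genes were called in either direction. A missed call does not show equal levels. All pif4 libraries of AT5G02540, COR413IM1, FAR1 and FLP1 lay below all wild-type libraries at 22 °C as well. For the remaining genes the groups overlapped at 22 °C. XTH15 was the exception at 29 °C (−1.25, limma adjusted p = 0.0871). Within pif4, 3 of the 12 still rose with warmth (AT5G02540, FLP1 and COR413IM1), against 4.67% of all tested genes. The comparisons share libraries with the one that ranked these genes, so these counts describe where differences were called and add no independent support.

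**Figure D3:**
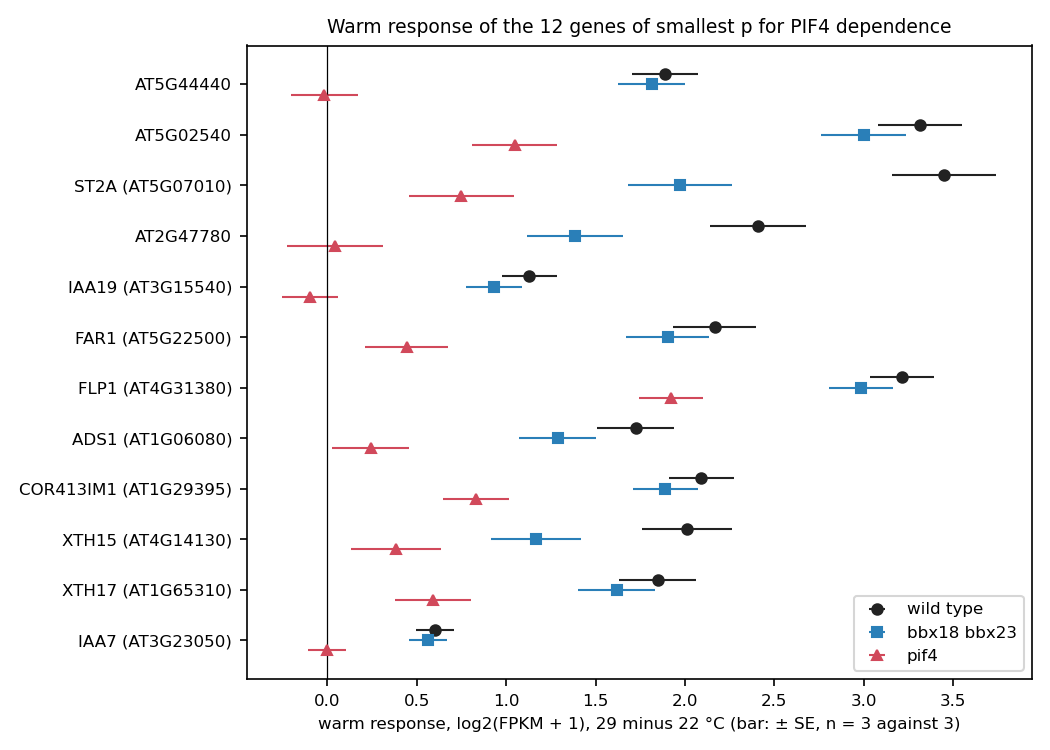
Warm response (29 minus 22 °C, log2(FPKM + 1), ± SE from limma, 3 libraries against 3) of the 12 genes of smallest p in wild type, bbx18 bbx23 and pif4. In all 12 genes the order was wild type, then bbx18 bbx23, then pif4, and the double mutant lay furthest below wild type for ST2A, AT2G47780, XTH15 and ADS1.

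The bbx18 bbx23 libraries entered the pif4 comparison only through the filter on low values and the shared estimate of the spread between replicates. All 12 genes rose in the double mutant as well (limma, adjusted p under 0.05), where 5.52% of all tested genes rose. Their responses there ranged from 0.56 for IAA7 to 3.0 for AT5G02540. When the pif4 response was set against that of bbx18 bbx23, no gene passed adjustment (0 of 19116; 175 at unadjusted p under 0.05), but AT5G44440 came closest, at −1.83 ± 0.26 (limma, adjusted p = 0.0656), followed among these genes by AT5G02540 at −1.95 ± 0.33 (adjusted p = 0.236). All 12 were lower in pif4 than in bbx18 bbx23, with unadjusted p from 3.43e-06 to 0.0440. That comparison uses the same pif4 libraries as the main one.

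The double mutant also supplied reference sets, chosen by its own change with warmth; the wild-type and pif4 libraries entered that choice through the filter and the shared estimate of spread. Of the 1055 genes that rose with warmth in bbx18 bbx23, the median response was 0.69 in the double mutant, 0.64 in wild type and 0.58 in pif4. The median difference between pif4 and wild type in this set was −0.06, and 61.1% of the genes had a lower response in pif4, against 56.2% of all tested genes. The 1541 genes that fell (8.06% of those tested) had a median difference of 0.00 and were split evenly, with 50% below 0. Among the 247 genes that rose by at least 1 in bbx18 bbx23, 14 (5.67%) had a difference below −1 and none above 1, whereas 0.173% of all tested genes were below −1 and 0.0942% above 1. Among the 375 that fell by at least 1, 1 lay below −1 and 1 above 1. Beside 10 of the 12 genes above, the 14 comprised IAA34, AT1G12080, AT1G73120 and AT4G33720. The difference for AT4G33720 was not resolved (−1.03 ± 0.59, unadjusted p = 0.102, limma).

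None of the 5 largest rises or 5 largest falls in wild type was called for PIF4 dependence. The 5 largest rises belonged to heat shock proteins, chaperones that protect unfolding proteins. HSP17.4 went from between 0.092 and 0.301 FPKM to 22.4, 50.5 and 22.7 FPKM in wild type and from between 0 and 0.221 FPKM to 31.4, 85.0 and 18.1 FPKM in pif4. HSP90.1 reached 24.3, 141 and 45.5 FPKM in wild type and 46.3, 204 and 32.3 FPKM in pif4. Replicate 2 was the highest at 29 °C in both genotypes, and this spread leaves wide intervals: the differences were 0.37 (95% interval −1.76 to 2.49) for HSP17.6A, 0.45 (−1.11 to 2.01) for HSP17.4, −0.07 (−2.13 to 1.98) for HSP90.1, −0.27 (−2.96 to 2.43) for HSP70 and 0.27 (−2.80 to 3.35) for AT1G07400. The double mutant showed the same jump: from replicate 1 to replicate 2 at 29 °C, HSP70 rose by 3.38 in wild type, 3.63 in pif4 and 3.52 in bbx18 bbx23 (log2). The intervals come from the fit without a replicate block, which counts such a shared shift as spread. In that fit they did not exclude a 2-fold effect of PIF4 on these genes in either direction.

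The 5 largest falls were in part measured more tightly. CYP82C4, an iron-regulated cytochrome P450, went from 40.0, 36.5 and 36.0 FPKM to 0.746, 1.39 and 0.386 FPKM in wild type, and from 46.8, 33.6 and 44.4 FPKM to 1.07, 1.02 and 0.765 FPKM in pif4 (difference −0.01, 95% interval −0.82 to 0.79). LHCB2.3, a light-harvesting antenna protein of photosystem II, fell from 1602, 1246 and 1217 FPKM to 137, 118 and 107 FPKM in wild type. In pif4 it fell from 1490, 1597 and 1224 FPKM to 81.0, 104 and 118 FPKM (difference −0.35, 95% interval −0.84 to 0.13). The antenna gene CAB2 (AT1G29920; −0.19, −0.97 to 0.60) had an interval that excluded a difference of 1 in either direction, as had those of CYP82C4 and LHCB2.3. The iron transporter IRT1 (0.21, −1.21 to 1.63) and the cold-induced KIN1 (0.45, −0.47 to 1.36) did not. CYP82C4, CAB2 and KIN1 have close copies in the genome with which they may share reads. Over all tested genes the median half-width of the 95% interval was 0.53, and for 83.7% of genes the whole interval lay within 1 of 0.

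Genes with a higher response in pif4 were fewer at the same p and none passed adjustment (limma, adjusted p of 1.0 for each). The smallest p belonged to AT5G39790, annotated as PROTEIN TARGETING TO STARCH, which read 2.38, 2.26 and 2.22 FPKM in wild type at 22 °C and 2.29, 2.41 and 3.97 FPKM at 29 °C. In pif4 it rose from 1.3, 1.76 and 2.41 FPKM to 4.52, 5.12 and 5.17 FPKM (1.09, adjusted p = 0.000410; difference 0.87 ± 0.23). UBC12, a ubiquitin-conjugating enzyme, read 0.296 to 0.748 FPKM in wild type and 2.77 to 3.82 FPKM in pif4 at 29 °C (1.19 ± 0.34). In GSTF11, a glutathione transferase (0.80 ± 0.23), MEE3, a MYB-like factor (1.05 ± 0.35), and MAM1, a chain-elongation enzyme of glucosinolate synthesis (0.60 ± 0.20), a positive difference came from a smaller fall. MEE3 fell from between 5.70 and 8.42 FPKM to between 0.572 and 1.67 FPKM in wild type, and to between 2.53 and 4.51 FPKM in pif4. GSTF11, MEE3 and MAM1 also fell less in bbx18 bbx23 than in wild type. Their ratios of the 29 to the 22 °C mean were 0.51, 0.36 and 0.59 there, 0.39, 0.15 and 0.45 in wild type, and 0.74, 0.45 and 0.69 in pif4. AT5G39790 (3.32 to 3.55 FPKM) and UBC12 (0.510 to 0.727 FPKM) lay within the wild-type range in the double mutant at 29 °C. Their ratios of the 29 to the 22 °C mean were 1.75 and 12.4 there. In wild type they were 1.26 and 0.94, and in pif4 2.71 and 3.11. The double-mutant ratio of UBC12 rests on 22 °C values of 0 to 0.154 FPKM. GSTF11 overlaps a gene on the opposite strand with identical sequence, so its reads may be split between them.

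The pathways through which PIF4 is known to act were followed with gene lists, of which only ST2A was called. Beside each list stands the whole table, where the median difference was −0.03, 56.2% of genes were below 0 and 0.79% had a lower response at unadjusted p under 0.05. Of the 25 tested Aux/IAA repressors, 20 were below 0 (median −0.15), and 3 had p under 0.05: IAA19, IAA7 and IAA34 (−1.17 ± 0.35). IAA34 read 2.05, 3.096 and 5.35 FPKM in wild type at 29 °C and 0.607, 0.186 and 0.612 FPKM in pif4, and at 29 °C it was lower in pif4 (−1.56, limma adjusted p = 0.0122). IAA6 had a difference of −0.46 ± 0.30. With warmth, IAA6, IAA7, IAA19 and IAA34 rose and IAA8 fell in wild type (−0.47, adjusted p = 0.00957), and in pif4 IAA8 alone was called (−0.57, adjusted p = 0.00277). The list medians of the response were 0.05 in wild type and −0.08 in pif4.

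Auxin synthesis genes were split around 0. Of the 11 tested members of 15, 5 were below 0 and the median was 0.02. YUC8, the flavin monooxygenase best known as a PIF4 target in warmth, read 4.29, 3.66 and 4.135 FPKM in wild type at 22 °C and 11.05, 4.67 and 7.20 FPKM at 29 °C (0.72, adjusted p = 0.0415). In pif4 it read 3.03, 3.49 and 2.80 FPKM at 22 °C and 3.51, 3.43 and 4.58 FPKM at 29 °C. The highest mutant library at 29 °C lay just below the lowest wild-type one, and the difference of −0.48 ± 0.31 was not resolved (95% interval −1.15 to 0.18). TAR2, a tryptophan aminotransferase of the same pathway, fell alike in both genotypes (−0.80 in wild type and −0.81 in pif4, adjusted p = 0.000296 and 0.000320), and CYP79B3, which makes indole-3-acetaldoxime, fell by 1.08 and 1.04 (adjusted p = 0.0311 and 0.0393). Among auxin-inactivating genes, GH3.3, which conjugates auxin to amino acids, rose in wild type (0.80, adjusted p = 0.0293) and not in pif4 (−0.09). The difference for GH3.3 was −0.89 ± 0.33 (unadjusted p = 0.0156, limma). In bbx18 bbx23 its temperatures overlapped as well (7.68 to 9.98 FPKM at 22 °C and 6.78 to 11.2 FPKM at 29 °C).

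Cell-wall genes held the other members near the top. XTH enzymes cut and rejoin xyloglucan in growing walls. Of 15 tested members 13 were below 0, with a median of −0.27. In wild type 8 had risen, against 5.63% of all tested genes. At unadjusted p under 0.05 (limma) 4 had a lower response (XTH15, XTH17, XTH8 and XTH19). XTH8 read 135, 117 and 97.3 FPKM in wild type at 29 °C and 52.1, 63.0 and 98.8 FPKM in pif4, so the groups overlapped through pif4 replicate 3 (−0.80 ± 0.28). XTH19 differed by −0.68 ± 0.25. Alpha-expansins, which loosen walls, differed from the XTH genes in that their median response was negative in both genotypes (−0.56 in wild type and −0.66 in pif4); 7 of 9 were below 0 and the median was −0.30, with EXPA8 at −0.82 ± 0.46 and EXPA11 at −0.53 ± 0.32, none at p under 0.05. EXPA8 fell in pif4 (−1.58, adjusted p = 0.00440) and read −0.76 in wild type (adjusted p = 0.146).

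The small auxin-induced SAUR genes and the PRE factors, atypical helix-loop-helix proteins that promote elongation, had mostly negative differences, and no member of either list was called. Of 20 SAUR genes tested, 19 were below 0 (median −0.32) and none had p under 0.05; the smallest p was that of SAUR16 at −0.50 ± 0.25. All 9 PRE and partner genes were below 0 (median −0.47, range −0.88 to −0.13), and PRE1 had the smallest p (−0.88 ± 0.34, unadjusted p = 0.0202, limma). PRE1 read 3.24, 4.32 and 2.52 FPKM in wild type at 29 °C and 1.51, 2.06 and 1.95 FPKM in pif4. PRE5 rose in wild type (0.86, adjusted p = 0.0116), from 0.489, 0.617 and 1.05 FPKM to 2.08, 2.2 and 1.99 FPKM, and read 0.30 in pif4 (difference −0.56 ± 0.30). The other genes counted as PIF targets gave a median of −0.43 with 7 of 9 below 0, and beside ST2A the cytokinin oxidase CKX5 (−0.63 ± 0.34) and the kinase WAG2 (−0.50 ± 0.25) came nearest to p of 0.05.

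These negative medians are read beside lists with no such role. The 9 tested reference genes, among them ACT2 and UBQ10, had 8 members below 0 and a median of −0.14. The root markers, which stand for organ makeup in whole seedlings, had 10 of 11 tested members below 0 and a median of −0.13. Their summed level over all 13 listed genes ran from 1658 to 2265 FPKM in wild type at 22 °C, 1600 to 2160 at 29 °C, 1892 to 2575 in pif4 at 22 °C and 1720 to 2362 at 29 °C, and no marker was at 0 throughout a group. Touch and rapid stress genes had all 10 tested members below 0 with a median of −0.36; their summed level was higher in pif4 at 22 °C (268.5 to 456.5 FPKM) than in wild type (181.6 to 275.0 FPKM) save for an overlap at the edge, and closer at 29 °C (366.5 to 422.2 against 301.9 to 386.9 FPKM). What part organ makeup, handling or library composition has in the list medians was not tested. In whole seedlings, fewer cells of a type and less RNA per cell cannot be told apart.

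**Figure D4:**
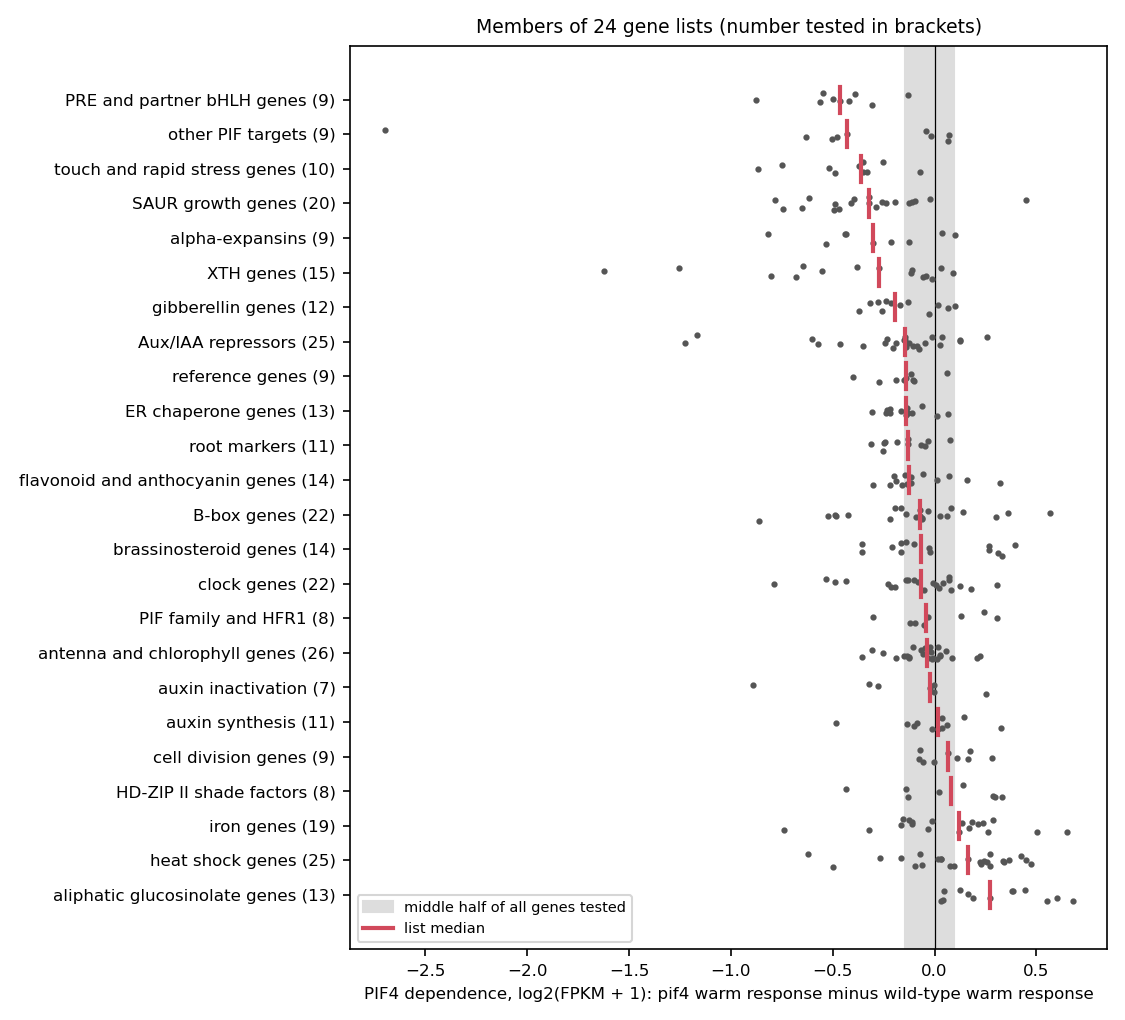
Difference between the pif4 and the wild-type warm response (log2(FPKM + 1)) for each tested member of 24 gene lists, ordered by list median (red bars); the grey band spans the quartiles of all 19116 tested genes. The PRE, SAUR, expansin, XTH, Aux/IAA, other PIF target, gibberellin and touch lists have medians to the left of the band, the aliphatic glucosinolate, heat shock and iron lists have medians to its right, and ST2A, XTH15, XTH17, IAA19 and IAA34 are the only members below −1.

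No member of the other hormone lists was called. Gibberellin genes had a median of −0.19 (9 of 12 below 0) and brassinosteroid genes −0.07 (9 of 14), with no member at p under 0.05; GAI, a DELLA repressor of gibberellin response, was at −0.32 ± 0.26, and BRI1, the brassinosteroid receptor, at −0.36 ± 0.35. HD-ZIP II shade factors (median 0.08) and the PIF family with HFR1 (median −0.04) had none either. HFR1, an atypical bHLH protein that restrains PIFs, read 15.3, 6.51 and 6.36 FPKM in wild type at 29 °C and 4.16, 3.24 and 2.21 FPKM in pif4, with 3.15, 8.97 and 4.91 against 1.42, 1.45 and 3.11 FPKM at 22 °C. The pif4 libraries lay below those of wild type at both temperatures, but neither difference passed adjustment (limma, adjusted p = 0.987 at 22 °C and 1.0 at 29 °C), and the difference of responses was −0.12 ± 0.56. ATHB2, a shade-induced homeodomain factor, averaged 7.00 FPKM in wild type and 3.58 FPKM in pif4 at 22 °C, and 14.4 and 8.999 FPKM at 29 °C (difference 0.33 ± 0.75).

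SPT, a bHLH relative of the PIFs, rose in both genotypes (0.89 in wild type and 1.14 in pif4, adjusted p = 0.00268 and 0.000484; difference 0.24 ± 0.25). PIF5 fell in both (−0.73 and −0.79, adjusted p = 0.0119 and 0.00850; difference −0.05 ± 0.26).

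Clock genes held 1 further member at unadjusted p under 0.05. BOA, a MYB-like relative of LUX in the clock, read 3.46, 2.84 and 3.15 FPKM in wild type and 5.02, 3.94 and 5.24 FPKM in pif4 at 22 °C, and 20.5, 20.6 and 18.5 against 19.9, 17.9 and 20.7 FPKM at 29 °C. The groups thus overlapped at 29 °C and not at 22 °C, and the difference of responses was −0.49 ± 0.16 (unadjusted p = 0.00831, limma). The evening-complex genes LUX (−0.43 ± 0.34) and ELF4 (−0.54 ± 0.43) rose in both genotypes, and the list median was −0.07 with 13 of 22 below 0.

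The aliphatic glucosinolate genes were the 1 list of which all tested members lay above 0 (13 of 13; median 0.27). These genes make methionine-derived defence compounds, and 10 of the 13 fell with warmth in wild type, where 8.55% of all tested genes fell. MYB29, a regulator of the pathway, fell from 4.42, 6.83 and 5.80 FPKM to 0.746, 1.19 and 1 FPKM in wild type, and from 5.89, 6.42 and 6.22 FPKM to 2.34, 2.64 and 2.29 FPKM in pif4. The 29 °C libraries of the 2 genotypes did not overlap (difference 0.68 ± 0.25, unadjusted p = 0.0163, limma). Those of bbx18 bbx23 (1.95 to 2.34 FPKM) also lay above all wild-type libraries at 29 °C. MAM1 read 48.6, 47.2 and 41.1 FPKM in wild type and 67.9, 55.0 and 63.9 FPKM in pif4 at 29 °C. Without the replicate 3 libraries at 29 °C 3 of the 13 were below 0 and the median was 0.15. The median response of the list was −0.83 in wild type, −0.54 in pif4 and −0.62 in the double mutant.

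The remaining lists gave no called difference. Of 25 heat shock genes 19 rose in wild type, where 5.63% of all tested genes rose. Their median difference was 0.16, a value that changed sign under 4 of the 23 alternatives. Of 26 antenna and chlorophyll genes 25 fell in wild type, where 8.55% of all tested genes fell. Their median difference was −0.04, with a range from −0.35 to 0.22. Beside that same share, 10 of 14 flavonoid and anthocyanin genes fell, with a median difference of −0.12. Of 19 iron genes 10 fell, with a median difference of 0.12. The ferritin gene FER1 was the member of smallest p among the iron genes: it read 315, 261 and 320 FPKM in wild type at 29 °C and 180, 186 and 291 FPKM in pif4 (difference −0.74 ± 0.35, unadjusted p = 0.0510, limma), with an overlap through pif4 replicate 3. No member of the heat shock, antenna, flavonoid or iron lists had p under 0.05. ER chaperones (median −0.14, 11 of 13 below 0) included PDIL1-1, a protein disulfide isomerase, at −0.31 ± 0.14 (unadjusted p = 0.0417, limma). B-box genes (median −0.07) and cell division genes (median 0.07) had none.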

How the data were processed

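RNA-seq of whole seedlings was deposited by the authors as 1 table of FPKM values, 18 libraries by 33602 genes. Per the submitters' processing notes, Bowtie 0.12.2 was used and the build mm8 is named, a mouse build, although the rows are Arabidopsis loci; the genome, annotation and counter are otherwise not given in the sources used here. No library is said to come from a separate batch of plants, so p-values measure the spread between these samples, which may be technical.

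Values were analysed as log2(FPKM + 1) for the 19116 genes at 1 FPKM or more in at least 3 of 18 libraries with limma 3.58.1 in R 4.3.3: 1 coefficient per group, all 18 libraries, variance trend, 2-sided moderated tests, Benjamini-Hochberg adjustment at 0.05. The fit was tested on simulated differences of responses. Alternatives were another pseudocount, no filter, size factors, fewer libraries, no trend, a replicate block, array weights and each library left out.

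The genes named were drawn by a rule. It took PIF4, BBX18 and BBX23, the called genes, and the 10 of smallest p in each direction with a group mean of 2 FPKM or more. It added the 5 largest rises and falls in wild type, all members of 5 lists and the 4 of smallest p in each other list. Some genes that met the rule were left out for length. A few others fall outside it (IAA8, AT1G12080, AT1G73120 and AT4G33720) and were named after their values were seen. The comparison and the 25 lists were chosen with earlier results of these data known. Names, overlaps, promoters and copies (blastn 2.17.0, 90% identity) come from RefSeq's TAIR10.1 annotation, which matched 32835 identifiers. Depth was estimated only approximately, from the spacing of low values in genes with transcripts of 1500 to 4000 bases, so no counting interval is given.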

Additional observations from a re-analysis of the deposited data

Results flagged for a closer look

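Each of the 3 genes called in the comparison differed between the genotypes in its response to the same change of temperature, by limma's test of the difference of responses adjusted over 19116 genes. The difference was −1.90 on the log2 scale for AT5G44440, where the 3 pif4 libraries at 29 °C were all listed at 0. It was −2.27 for AT5G02540, which still rose in pif4. It was −2.70 for ST2A, where wild type at 29 °C replicate 1 read 73.8 FPKM against 29.0 and 37.0 FPKM in the other libraries of its group. All 12 libraries have groups of 3, too small to test a single library as an outlier.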

How the results depend on the processing

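The count of 3 PIF4-dependent genes became 0 with 0.1 FPKM added in place of 1, 1 without the filter, 3 with size factors, 3 without the variance trend, 2 with array weights and 2 with the libraries of the 4 groups alone, and it ran from 0 to 6 when 1 library, or 1 replicate number at 29 °C, was left out; every call in these settings was for a lower response in pif4. With a replicate block it was 5, adding AT2G47780 (limma, adjusted p = 0.0484) and IAA19 (0.0430), and with a replicate block within temperature 8, adding those (0.0266 each), FAR1 (0.0111), ADS1 (0.0186) and AT1G73120 (0.0266). The replicate numbers are not said to pair libraries: same-numbered wild-type and pif4 libraries deviated together at 22 °C (correlations 0.502, 0.491 and 0.604) but not all at 29 °C (0.467, 0.694 and −0.324). At 29 °C the correlations with bbx18 bbx23 were 0.702, 0.732 and 0.239 for wild type and 0.691, 0.779 and 0.0525 for pif4, a hint of shared numbers that not every pair carries. The values without the block are the ones reported. With the libraries of the groups alone, 1289 genes changed with warmth in wild type, 1096 in pif4, and 6 differed between the genotypes at 29 °C. With the block within temperature these were 4572, 4841 and 47, with 4454 in bbx18 bbx23, 13 between genotypes at 22 °C and 2 between the responses of pif4 and bbx18 bbx23, also 2 with the plain block. Array weights gave 4726 in pif4, 8788 in bbx18 bbx23, 7 at 22 °C and 13 for pif4 against bbx18 bbx23, which became 1 with 0.1 FPKM added and 1 without the trend. Without the filter 7 genes differed at 22 °C. Leaving out libraries gave 1951 to 2760 genes in wild type, 1524 to 2518 in pif4 (1524 and 1666 without pif4 at 22 °C replicates 1 and 2), 1519 to 2824 in bbx18 bbx23 (1550, 1519 and 2060 without its replicate 2 at 22 °C, replicate 3 at 29 °C and replicate 1 at 29 °C), 3 to 5 at 22 °C, 13 to 29 at 29 °C and 0 to 1 for pif4 against bbx18 bbx23. Without replicate 1, 2 or 3 at 29 °C in all genotypes, 14, 13 and 15 genes differed at 29 °C, and without replicate 3 there 1644 changed in bbx18 bbx23. The count at 29 °C was 15 without wild type at 29 °C replicate 1 and 15 without pif4 at 29 °C replicate 2. The cause of these moves was not tested. Only the 3 called genes had a call to lose. Of the 23 alternatives AT5G44440 kept it in 11, AT5G02540 in 11 and ST2A in 9. The remaining 38 values of these genes lost it. Of all 3404 values of 148 named genes under the alternatives, 11 gained a call. No called value changed sign, and 174 uncalled values in 52 genes did. The list medians kept their sign in all 23 alternatives for the Aux/IAA (−0.22 to −0.07), PRE (−0.65 to −0.34), SAUR (−0.55 to −0.11), XTH (−0.52 to −0.14), expansin (−0.58 to −0.01), touch (−0.54 to −0.20), reference (−0.47 to −0.02) and aliphatic glucosinolate lists (0.14 to 0.40), and those of heat shock (−0.45 to 0.71), antenna, auxin synthesis and iron genes did not. These settings reuse the same libraries, so a kept sign adds no independent support. The spread of the list medians between libraries gave an SE for each difference. It was 0.18 for the Aux/IAA, 0.37 for the PRE, 0.46 for the SAUR and 0.21 for the XTH list. For the expansin, touch, reference and aliphatic glucosinolate lists it was 0.41, 0.33, 0.24 and 0.19. The median over all genes stayed between −0.05 and −0.01.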
